A study of Mus musculus with 10 samples.

Results

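The transcription factors STAT5A and STAT5B are close relatives, and most STAT5B sites called in this study coincide with a STAT5A site. The 238 sites described here do not follow that pattern. Peaks of 3 lists were merged into 26339 sites wherever they overlapped by at least 1 bp, and the discordant ones, 0.904% of all, were kept. They form 4 subclasses: 62 sites held wild type STAT5B alone, 26 held STAT5B in both genotypes without any STAT5A, 14 held Stat5a-null STAT5B alone, and 136 held STAT5A with Stat5a-null STAT5B but no wild type STAT5B. The sites were selected on the presence or absence of a peak in each list. The classes and everything computed from the same peak scores are therefore descriptions, given without a test.

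Each list came from 1 ChIP-seq library of mouse mammary tissue taken on the day of parturition, on a mixed 129SV::FVB/N::C57BL/6 background. The wild type (AABB) mice carried Stat5a and Stat5b, and the Stat5a-null (BB) mice carried Stat5b only. STAT5A was precipitated from wild type tissue, and STAT5B from tissue of either genotype. With 1 library per group no difference has a replicate check, the number of animals behind a library is not given in the labels, and the total reads behind each list are unknown. Whole tissue was used, so the cell type that carried a site was not determined. The STAT5A list held 26237 peaks. The STAT5B lists held 6976 peaks in wild type and 2578 in Stat5a-null mice.

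In the mammary epithelium, prolactin acts through its receptor and the kinase JAK2 to phosphorylate both STAT5 proteins, which pair up, enter the nucleus and bind a short palindromic DNA element near milk protein and other genes. STAT5A is the more abundant form in this tissue, and mice without it have impaired lobuloalveolar development and lactation. The 2 proteins can form mixed pairs and recognise very similar DNA. A STAT5B peak with no STAT5A peak on it is thus the less common case, and so is a STAT5A site where STAT5B was called only after Stat5a loss.

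For each subclass the distance to a list it lacked was measured. That list was STAT5A (26237 peaks) for the first 2 subclasses and wild type STAT5B (6976 peaks) for the other 2. Shares are therefore comparable only where the list is the same. A gap is the number of bases between the edges of a site and of the nearest peak. Of the 62 sites with wild type STAT5B alone, 49 had a STAT5A peak within 500 bp, a share of 79.0% (exact 95% interval 66.8% to 88.3%). Of the 26 sites with STAT5B in both genotypes, 6 did (23.1%, 8.97% to 43.6%). For the 14 sites with Stat5a-null STAT5B alone, 8 lay within 500 bp of wild type STAT5B (57.1%, 28.9% to 82.3%). For the 136 sites with STAT5A and Stat5a-null STAT5B the number was 9 (6.62%, 3.07% to 12.2%). Of STAT5A-alone sites, 0.484% (0.391% to 0.593%) lay this near to wild type STAT5B. Their STAT5A scores were lower, with a median of 21.3 against 44.8 at the 136 sites. As a reference, 3.43% (2.92% to 4.01%) of the 4486 sites with STAT5A and wild type STAT5B, and 3.33% (2.65% to 4.13%) of the 2402 sites of all 3 lists, had a further STAT5A peak within 500 bp. These reference sites already hold a STAT5A peak, and centres of STAT5A peaks lay at least 563 bp apart. A further one could thus hardly lie close by (smallest gaps 263 bp and 201 bp), so the comparison is not like for like. Intervals cover counting error over sites only. At this limit most sites with wild type STAT5B alone had a STAT5A neighbour, while the interval of the 14 sites with Stat5a-null STAT5B alone spans 50%. With a limit of 100 bp these 2 shares were 24.2% and 7.14%, and that of STAT5A with Stat5a-null STAT5B was 2.21%.

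**Figure D1:**
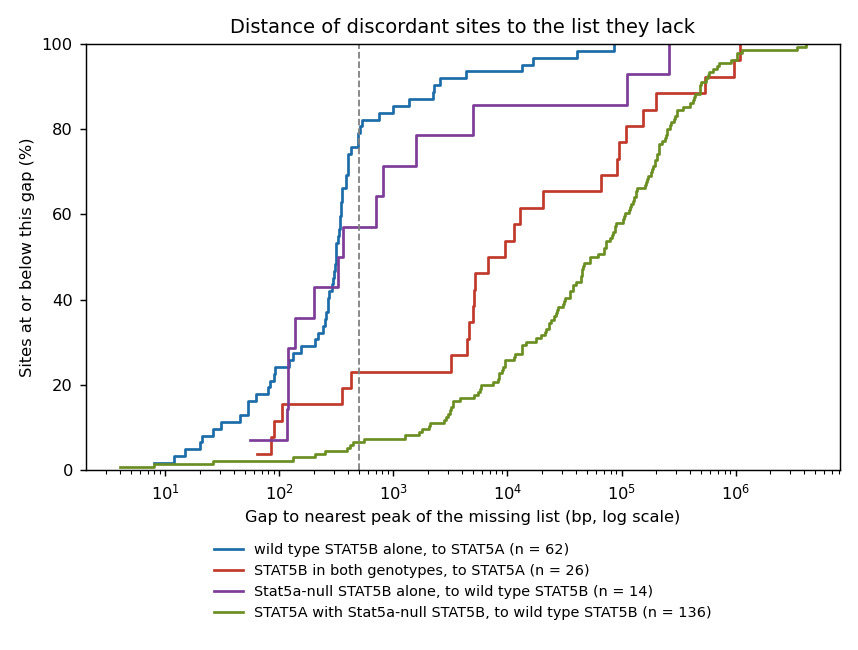
Cumulative share of sites (vertical axis, %) against the gap to the nearest peak of the list that the site lacks (horizontal axis, bp, log scale), for the 4 subclasses. The dashed line marks 500 bp, where 79.0% of the sites with wild type STAT5B alone and 6.62% of those with STAT5A and Stat5a-null STAT5B have been reached. The first share is for STAT5A peaks and the second for the shorter list of wild type STAT5B peaks.

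The calling method sets a limit here. Peaks were of equal width within a list, at 276 bp in the STAT5A list, 252 bp in the wild type STAT5B list and 258 bp in the Stat5a-null list. Centres of neighbouring peaks in the same list lay at least 563 bp, 509 bp and 578 bp apart, in that order. Membership turned on few bases at some sites. The smallest gap between a STAT5A peak and a STAT5B site without STAT5A was 8 bp, and 4 such gaps were at most 20 bp. On the other side of the rule the smallest overlap of a STAT5A and a wild type STAT5B peak was 21 bp, and 7 overlaps were at most 50 bp. Between wild type and Stat5a-null STAT5B peaks the smallest overlap was 3 bp, and the smallest gap at a site with Stat5a-null but no wild type STAT5B was 4 bp.

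The 26 sites that held STAT5B in both genotypes but lacked STAT5A included the highest-scoring STAT5B peaks of the study. The score is the value the authors deposited for each peak, and its scale is not stated, so it ranks peaks within 1 list. In the wild type STAT5B list they had scores of 10.5 to 191.8 with a median of 39.9, and ranks from 1 to 6946. In the Stat5a-null list they had scores of 8.2 to 168.1 with a median of 22.95. The median wild type score was 25.8 at sites of all 3 lists and 15 at sites with STAT5A and wild type STAT5B only. The share of sites without STAT5A fell down the wild type list, from 5 of the 10 highest to 9 of 51 sites at ranks up to 50, 12 of 101 up to 100 and 16 of 501 up to 500. All 16 lacked a STAT5A peak within 500 bp as well. In the Stat5a-null list, 6 of the 10 highest sites, 8 of 50 and 8 of 101 were without STAT5A.

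The 3 highest sites of either STAT5B list were the same and lay far from STAT5A. At chr11:108873121-108873378 (mm9 here and below) the wild type score was 191.8 and the Stat5a-null score 168.1, rank 1 in both lists, and the nearest STAT5A peak was 65754 bp away. At chr5:147072536-147072855 the scores were 153.5 and 127.3, rank 2 in both, with STAT5A 12905 bp away. At chr3:5860618-5860875 they were 134.4 and 108.4, rank 3 in both, with STAT5A 960268 bp away. These 3 sites stood above the highest site of all 3 lists, which ranked 4 in both STAT5B lists at scores of 124.2 and 100.2. The other isolated sites with STAT5B in both genotypes and wild type ranks up to 500, leaving out chromosome 13, were chr17:36368233-36368493 (rank 5 among wild type and 6 among Stat5a-null peaks), chr16:57391507-57391767 (6 and 5), chr1:197067796-197068058 (12 and 8), chr6:3151366-3151625 (19 and 13), chr9:123370980-123371243 (44 and 21) and chr8:15519804-15520061 (354 and 138). Apart from the last of these, all ranked within the first 50 of both lists.

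**Figure D2:**
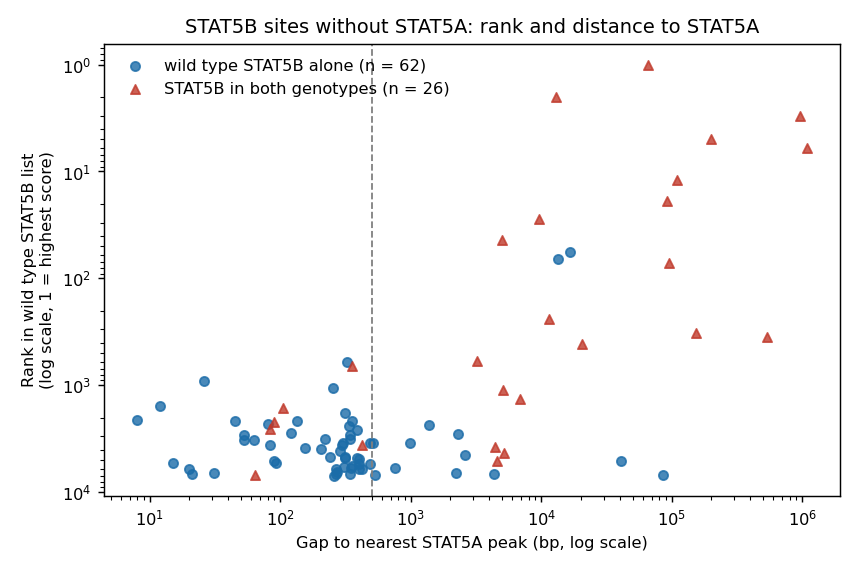
Rank in the wild type STAT5B list (vertical axis, log scale, rank 1 at the top) against the gap to the nearest STAT5A peak (horizontal axis, bp, log scale) for the 88 sites with wild type STAT5B and no STAT5A. The sites within 500 bp of STAT5A (left of the dashed line) rank between 602 and 6972, while all sites ranked up to 500 lie at gaps of 4959 bp or more.

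The 26 sites fell into 3 sets by position. A STAT5A peak lay within 500 bp of 6 of them, 8 lay in 1 stretch of chromosome 13, and the other 12 were isolated elsewhere. The sets were formed after the values had been seen. Among the 20 sites with no STAT5A within 500 bp, the gap to STAT5A ran from 3229 bp to 1084248 bp. Peak centres of the 2 STAT5B lists lay a median of 6 bp apart over the 26 sites (quartiles 2.25 bp and 19.5 bp), against 19 bp (9 bp and 36 bp) at the 2402 sites of all 3 lists. At 24 of 26 sites (92.3%, 74.9% to 99.1%) the centres were within 50 bp, against 87.3% (85.9% to 88.6%) of sites of all 3 lists, and these intervals overlap.

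The ratio of the Stat5a-null to the wild type score was compared across the 26 sites. Because the scales of the lists are unknown, each site's ratio was divided by the median ratio of the 2402 sites of all 3 lists, which removes any constant factor between the libraries. A relative ratio of 1 means that a site had the median score ratio of these shared sites. Whether the scores reflect STAT5B binding at each site was not tested, and the input libraries of the series were not examined. The middle 50% of the shared sites lay between 0.832 and 1.20 (5th to 95th percentile 0.632 to 1.54). Over the 12 isolated sites elsewhere relative ratios ran from 0.833 to 1.35, and over the 6 sites near STAT5A from 0.533 to 1.42. The 9 isolated sites elsewhere with wild type ranks up to 500, a subset taken after the values were seen, had relative ratios of 1.16 to 1.35 (median 1.24), all above 1. The 8 sites of the chromosome 13 stretch had relative ratios of 0.607 to 0.888 (median 0.818), all below 1. The range of the stretch thus overlapped that of the 12 isolated sites but not that of the 9 highest of them. The remaining isolated sites, at chr3:96067163-96067439, chr1:102076642-102076899 and chr19:8326630-8326887, had relative ratios of 1.10, 0.971 and 0.833 and wild type ranks of 1329, 4325 and 5048.

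Since the ratio can vary with the height of a site, each was also set beside shared sites of similar wild type rank. Among the 89 shared sites at ranks up to 100 the relative ratio had a median of 0.986 and a 95th percentile of 1.24. The sites on chromosomes 11 and 1 stood at percentile 96.6 of these and the site on chromosome 16 at percentile 98.9. The lowest of the high isolated sites, on chromosome 3, stood at percentile 84.3. The 2 highest sites of the chromosome 13 stretch stood at percentiles 13.5 and 27.0. Most single sites therefore lay inside the spread of shared sites. Even so, the isolated sites elsewhere at ranks up to 100 all stood at percentile 84.3 or higher.

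**Figure D3:**
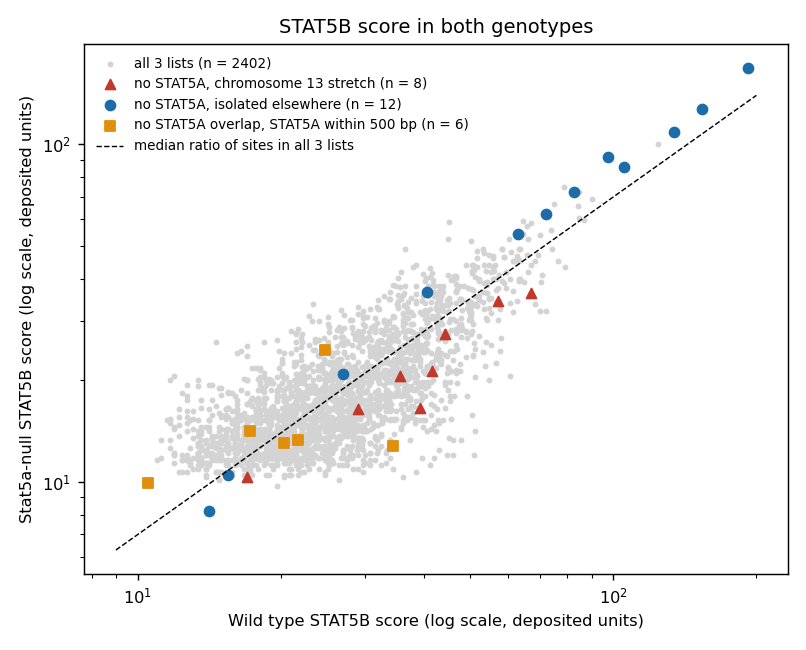
Stat5a-null STAT5B score (vertical axis) against wild type STAT5B score (horizontal axis, both log scale and in deposited units) at the 26 sites with STAT5B in both genotypes and no overlapping STAT5A peak (coloured) and at the 2402 sites of all 3 lists (grey). The dashed line is the median ratio of the grey sites. The 9 highest blue circles lie above it and the 8 red triangles of the chromosome 13 stretch below it.

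The stretch of chromosome 13 ran from chr13:21826732 to chr13:23848952, which is 2.02 Mb or 1.68% of the chromosome. It held 30 sites, of which 8 had STAT5B in both genotypes without STAT5A and 1 had wild type STAT5B alone. A further 16 had STAT5A alone, 4 were in all 3 lists and 1 had STAT5A with wild type STAT5B. Chromosome 13 as a whole held 30.8% (14.3% to 51.8%) of the 26 sites, against 4.66% (3.85% to 5.58%) of sites of all 3 lists and 5.51% (5.19% to 5.84%) of sites with STAT5A alone. The bounds of the stretch were drawn around these sites, so the shares describe them and test nothing. The largest cluster of histone genes in the mouse, together with many transfer RNA genes, is known to lie on chromosome 13, but which genes lie at these sites was not determined, because gene positions of mm9 were not used here.

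Within the stretch the sites without STAT5A formed 2 blocks. Between them no STAT5B peak was called until sites of all 3 lists shortly before the second block, 1726 kb and 1737 kb from the start. The first block, within 307 kb of the start, held the sites chr13:21826732-21827013 (wild type score 29.1, Stat5a-null score 16.4), chr13:21842324-21842615 (39.2 and 16.6) and chr13:22133177-22133438 (67.1 and 36.2). It also held the site with wild type STAT5B alone, chr13:21923909-21924160 (14.1). The second block held chr13:23622756-23623013 (35.6 and 20.6), chr13:23643436-23643696 (17 and 10.3), chr13:23673250-23673509 (44.2 and 27.4), chr13:23790264-23790521 (57.3 and 34.3) and chr13:23848654-23848952 (41.6 and 21.3). The wild type ranks of these 9 sites lay between 28 and 5048, and their median was 414. In the same stretch the 21 STAT5A peaks had a median rank of 14940, and none of these 9 sites had a STAT5A peak closer than 3229 bp. The stretch also held one of the strongest shared sites, chr13:23563543-23563818 by its STAT5A peak, which ranked 4 in the STAT5A list, 16 in the wild type STAT5B list and 11 in the Stat5a-null list.

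**Figure D4:**
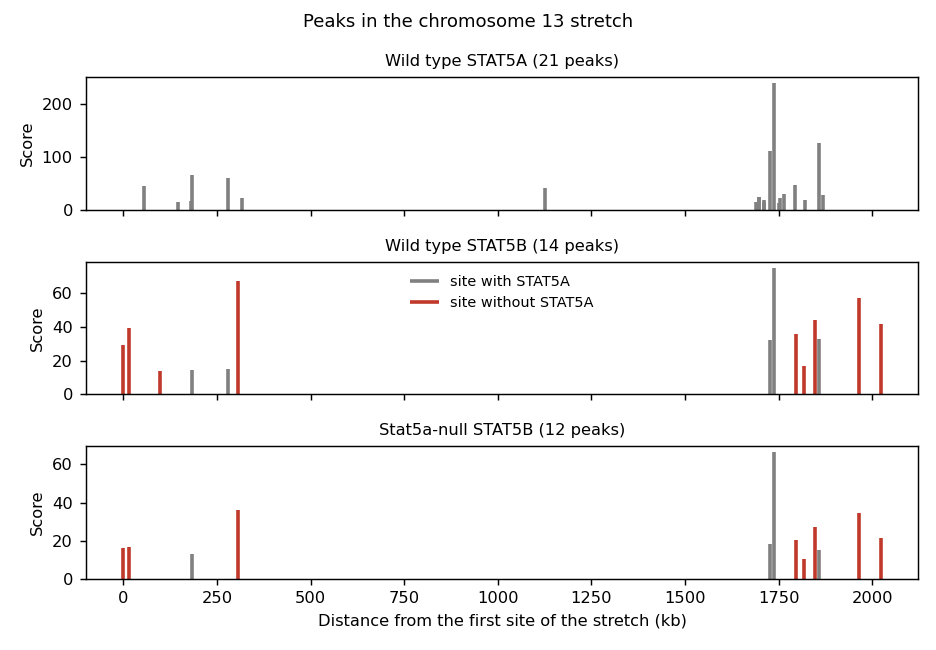
Scores of all peaks in the chromosome 13 stretch (vertical axes, deposited units, each list on its own scale) against distance from the first site (horizontal axis, kb), for wild type STAT5A (21 peaks), wild type STAT5B (14) and Stat5a-null STAT5B (12). Red lines are sites without STAT5A, which recur at the same places in the 2 STAT5B lists.

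The other 6 sites with STAT5B in both genotypes had a STAT5A peak at gaps of 64 bp to 425 bp. Their wild type ranks ran from 660 to 6946, lower in the list than most isolated sites. At 4 of the 6 the neighbouring STAT5A peak was a STAT5A-alone site, so STAT5A and STAT5B were called next to each other rather than on the same bases. The clearest case was chr16:23988589-23988855, where STAT5B scored 24.8 in the wild type list and 24.6 in the Stat5a-null list, 105 bp from STAT5A. It had the highest relative ratio of the 26, at 1.42. With the reference matched on wild type rank its ratio was 1.30, below the 1.416 of chr8:15519804-15520061 and the 1.370 of chr16:57391507-57391767. The lowest unmatched relative ratio of the 26 was 0.533 at chr15:50905316-50905573, with scores of 34.4 and 12.8 and a STAT5A peak 351 bp away.

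Sites with wild type STAT5B alone spread over most of the list, and most lay within 500 bp of STAT5A. Their scores lay between 10 and 59.7 (median 16.25), and 27 of 62 (43.5%, 31.0% to 56.7%) were in the higher-scoring 50% of the wild type STAT5B list. At sites with STAT5A and wild type STAT5B the median score was 15 and the share 32.0% (30.6% to 33.4%). Of the 49 with STAT5A within 500 bp, 23 adjoined a site that already held a wild type STAT5B peak, as a second peak to its side. The other 26 adjoined a STAT5A site without wild type STAT5B, where the STAT5B peak was offset from the STAT5A peak. Of these 26 neighbours, 19 were STAT5A-alone sites with STAT5A ranks of 1966 to 7710. All 19 were thus stronger than the median STAT5A-alone site, which ranked 16544.

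Seen from the STAT5A side, a wild type STAT5B peak close by was frequent only at the highest-scoring STAT5A sites that had no overlapping one. In decile 1 of STAT5A sites by score (the highest) only 20 had no overlapping wild type STAT5B peak, and 10 of these had one at a gap of up to 500 bp. The corresponding numbers were 16 of 251 in decile 2 (6.37%) and 21 of 1205 in decile 3 (1.74%). Over all 19213 STAT5A-alone sites, 93 (0.484%, 0.391% to 0.593%) lay this near to wild type STAT5B.

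Only 13 of the 62 sites had no STAT5A peak within 500 bp, and 2 of them scored high. These were chr19:61275535-61275786 (score 59.7, rank 57) and chr16:11144102-11144353 (58, rank 66). Their nearest STAT5A peaks were 16713 bp and 13299 bp away and no Stat5a-null STAT5B peak was called at either. Of the 12 sites without STAT5A among the 101 highest wild type STAT5B sites, these were the 2 not called in both genotypes. The remaining 11 isolated sites ranked 2339 or lower, and the gap to STAT5A was 512 bp to 4311 bp at 9 of them. The exceptions were chr13:21923909-21924160, described above, and chr14:4187146-4187397 (score 10.3, rank 6960), with gaps of 40757 bp and 85354 bp.

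Sites with Stat5a-null STAT5B alone were few and of low to moderate score. The 14 scores lay between 11.4 and 32.4 (median 15.5), and 5 of 14 (35.7%, 12.8% to 64.9%) belonged to the upper 50% of their list. At the top were chr13:102944499-102944756 (score 32.4, rank 219), 119 bp from wild type STAT5B, and chr3:96355887-96356144 (25, rank 481), 325 bp from it. All 8 sites within 500 bp of wild type STAT5B adjoined a site that held both STAT5A and wild type STAT5B, and 6 of these neighbours had no Stat5a-null peak of their own. At those 6, STAT5B was called in both genotypes at offset positions. Within 2000 bp, 12 of the 14 sites had a STAT5A peak. The 2 others were chr16:16060598-16060855 (score 13.3, STAT5A 12614 bp away) and chr1:122168377-122168634 (12.6, 4950 bp away). Among the 6 sites with no STAT5A within 500 bp the highest, chr7:151859314-151859571, ranked 1122 in the Stat5a-null list.

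The largest subclass, 136 sites with STAT5A and Stat5a-null STAT5B, combined moderate STAT5A signal with weak Stat5a-null signal. STAT5A scores lay between 13.9 and 132.6 (median 44.8). That lay between the medians of STAT5A-alone sites (21.3) and of sites with STAT5A and wild type STAT5B (62), and below the 104.3 of sites of all 3 lists. Stat5a-null scores lay between 9.9 and 27.4 (median 13), against 17 at sites of all 3 lists. Only 18 of 136 (13.2%, 8.04% to 20.1%) were in the higher-scoring 50% of the Stat5a-null list. Peak centres of STAT5A and Stat5a-null STAT5B lay a median of 19 bp apart, the same as at sites of all 3 lists.

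By STAT5A score the 136 sites were concentrated in deciles 2 to 5. From the highest down, deciles 1 to 5 held 8, 29, 40, 28 and 18 of them, and the lower 50% of STAT5A sites held the other 13. At STAT5A sites without and with wild type STAT5B, the shares with a Stat5a-null STAT5B peak were 40% of 20 (19.1% to 63.9%) against 68.5% of 2601 (66.6% to 70.3%) in decile 1, 11.6% of 251 (7.88% to 16.2%) against 21.8% of 2363 (20.1% to 23.5%) in decile 2, and 3.32% of 1205 (2.38% to 4.49%) against 6.77% of 1433 (5.52% to 8.20%) in decile 3. They were 1.25% against 2.05% in decile 4 and 0.701% against 1.22% in decile 5. These shares are made from the calls that define the subclass and are a description only. For 5 of the 8 members in decile 1, the nearest peak of wild type STAT5B was at most 500 bp away.

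**Figure D5:**
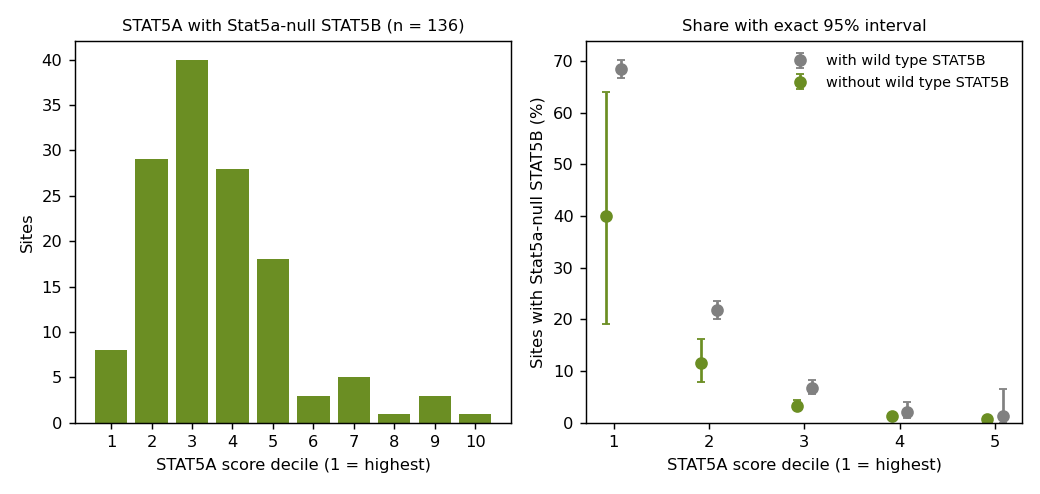
Left, number of sites with STAT5A and Stat5a-null STAT5B but no wild type STAT5B (vertical axis) in each decile of STAT5A sites by score (horizontal axis, 1 is the highest). Right, share of STAT5A sites with a Stat5a-null STAT5B peak (%, bars are exact 95% intervals) among sites with (grey) and without (green) wild type STAT5B. The green share is 40% in decile 1 and 0.701% in decile 5, and the grey share 68.5% and 1.22%; the calls plotted are those that define the subclass.

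The 2 highest sites of this subclass lay beside a wild type STAT5B peak. At chr7:130190492-130190775 STAT5A scored 132.6 (rank 664) and Stat5a-null STAT5B 27.4 (rank 370). A wild type STAT5B peak of score 25.3, chr7:130190236-130190487, ended 4 bp before the site and 12 bp before its STAT5A peak. At chr1:55742367-55742642 the scores were 123.2 (rank 859) and 25 (rank 481), with a wild type STAT5B peak of score 31.3 at a gap of 26 bp. In all, 6 of the 136 sites adjoined a site with wild type STAT5B alone, and the site chr17:13851141-13851441 had one on either side, at gaps of 8 bp and 397 bp. For 127 sites no wild type STAT5B peak lay within 500 bp. The highest of these by Stat5a-null score were chr4:129977279-129977564 (21.9, STAT5A rank 7264), chr12:33394238-33394518 (20.8, rank 6296) and chr8:126482099-126482395 (20.4, rank 7659). At chr11:15884575-15884850 a weak STAT5A peak (14.8, rank 22923) met a Stat5a-null score of 17.7 (rank 1122), and the nearest wild type STAT5B peak was 487288 bp away.

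Few of the 238 sites lay near unsequenced ends of chromosomes. Their share was still above that of STAT5A-alone sites, of sites with STAT5A and wild type STAT5B, and of sites of all 3 lists. The intervals overlapped. In mm9 each chromosome begins with about 3 Mb of unsequenced bases, and the lowest peak start in the lists was 3037921. Of 236 placed sites, 4 (1.69%, 0.464% to 4.28%) lay within 500 kb of this start or of the chromosome's end, against 0.760% (0.642% to 0.894%) of STAT5A-alone sites. By subclass they were 2 of the 26 sites with STAT5B in both genotypes (7.69%, 0.946% to 25.1%), 1 of 61 placed sites with wild type STAT5B alone (1.64%, 0.0415% to 8.80%), 0 of 14 with Stat5a-null STAT5B alone (upper bound 23.2%) and 1 of 135 with STAT5A and Stat5a-null STAT5B (0.741%, 0.0188% to 4.06%). The interval of the 26 sites, which rests on 2 sites, lay above that of STAT5A-alone sites. It overlapped that of sites of all 3 lists (0.667%, 0.382% to 1.08%). It also overlapped that of sites with STAT5A and wild type STAT5B (0.825%, 0.582% to 1.14%). The intervals of the other subclasses overlapped that of STAT5A-alone sites. The 4 sites included 3 of the higher-scoring sites without STAT5A: chr6:3151366-3151625, 151 kb from the start, chr1:197067796-197068058, 127 kb from the end, and chr19:61275535-61275786, 66.6 kb from the end. No member lay within 50 kb. Assembly gaps inside chromosomes, repeats, nearby genes and the sequence of the sites were not analysed here.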

How the data were processed

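Peak lists of 3 ChIP-seq samples were analysed, grouped by sample title: STAT5A from wild type tissue, and STAT5B from wild type and from Stat5a-null tissue. The other 7 samples were not used. Among them were an input library of each genotype and a STAT5A precipitation from Stat5a-null tissue. Per the submitters' processing notes, CASAVA, BWA and HOMER were used on mm9. The sources used here give no versions or thresholds, nor the controls used in peak calling. Column 4 of each list deposited by the authors was read as a signal per peak of unstated scale, called the score. Starts were read as 0-based and are printed 1-based.

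Peaks overlapping by at least 1 bp were merged into sites, and each site takes its highest peak per list. The merge was tested on simulated data, where all 26130 planted sites were recovered, counted by class. The planted sites lay far apart and their peaks overlapped widely, so gaps and overlaps of few bases were not covered. On the real lists bedtools 2.31.1 gave the same counts. Shares have exact Clopper-Pearson 95% intervals. Deciles were cut by STAT5A rank. Work was done in Python 3.11.15 (scipy 1.17.1, pandas 2.3.3, numpy 2.4.6, matplotlib 3.10.9), with mm9 chromosome lengths from GenomeInfoDb. No test between conditions was made.

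The gene and promoter tables at hand are of GRCm38, so the planned gene, histone, transfer RNA, repeat and motif counts were not run and no sequence is printed. Members, sets and lists were chosen with earlier results of these data known. The naming rule allows any site of the 2 smaller subclasses, the 10 highest by STAT5B score of the 2 larger ones and the highest with each property counted, and examples from these are printed; chr11:15884575-15884850, chr17:13851141-13851441 with its neighbours, and the isolated sites with wild type STAT5B alone on chromosomes 13 and 14, were chosen after their values were seen. Alternatives were other overlap rules, the higher-scoring 50% of each list, other gap limits and, added after seeing the data, a ratio reference matched on rank.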

Additional observations from a re-analysis of the deposited data

How the results depend on the processing

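The number of sites depended on the overlap rule most for the subclasses that adjoin other STAT5 sites. Wild type STAT5B alone went from 62 sites to 113 with peak centres within 100 bp, 13 with gaps of up to 500 bp merged and 33 in the higher-scoring 50% of each list. Stat5a-null STAT5B alone went from 14 to 24 with an overlap of 50% of both peaks, 36 with centres within 100 bp, 6 with gaps merged and 7 in the higher-scoring 50%. STAT5B in both genotypes stayed between 20 and 28 except in the higher-scoring 50% (16), and STAT5A with Stat5a-null STAT5B between 127 and 136 except there (56). The higher-scoring 50% drops peaks by construction. With a limit of 100 bp the shares near the missing list were 24.2% for wild type STAT5B alone, 7.14% for Stat5a-null STAT5B alone and 2.21% for STAT5A with Stat5a-null STAT5B. Within 50 kb, 0% of placed sites lay near a chromosome start or end. Of 32 alternatives of 16 values, 19 were rated the same. For counts this meant a change of at most 1.5 times, and for shares a value within the main interval. For scores, the median percentile and the share in the higher-scoring 50% had to lie on the same side of 50. That is nearly fixed in advance, so the score alternatives say nothing about stability. For relative ratios the median had to stay on its side of 1 and move by less than the standard deviation over sites. With a reference matched on rank the median relative ratios were 0.839 (chromosome 13 stretch) and 1.23 (12 isolated sites elsewhere), from 0.818 and 1.21. Alternatives on genes, repeats, motifs and runs of unsequenced bases were not run. No paired analysis was possible because each group has 1 library, and none could be left out.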

Other observations

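Of the 236 placed discordant sites, 35 lay within 100 kb of another one. No like share was computed for other sites, so whether this is many or few was not determined. Joining placed sites across gaps of up to 100 kb gave 217 groups, of which 16 held 2 or more sites, with 35 sites in all. The chromosome 13 stretch held 3 of the 16 groups, with 8 sites, and 13 groups with 27 sites lay elsewhere. Of these 16, 13 were pairs, and 4 pairs spanned under 1 kb, each made of a site with wild type STAT5B alone beside a site with STAT5A and Stat5a-null STAT5B. At 2 of those 4 pairs, chr1:90969999-90970250 and chr2:50288521-50288772 by their wild type STAT5B peak, the gap to the STAT5A peak was 252 bp and 133 bp, and the STAT5A peaks ranked 859 and 2234. A triplet within 1.19 kb on chromosome 17, from 13850881 to 13852065, had 2 wild type STAT5B peaks of scores 22.2 and 13.4 on either side of a STAT5A peak of score 97 with a Stat5a-null STAT5B peak of score 14.9.

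On the X chromosome, 4 of the 136 sites with STAT5A and Stat5a-null STAT5B were found (2.94%, exact 95% interval 0.807% to 7.36%). The share was 0.624% (0.350% to 1.03%) of sites of all 3 lists and 2.36% (2.15% to 2.59%) of STAT5A-alone sites, and the first interval overlaps both. The other 102 discordant sites held 1 X-linked site, with wild type STAT5B alone. On unplaced sequence lay 2 of the 238 discordant sites, against 3 of 2402 sites of all 3 lists and 13 of 19213 STAT5A-alone sites. One held STAT5A and Stat5a-null STAT5B, the other wild type STAT5B, at a gap of 206 bp from each other.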
